A study of Mus musculus with 4 samples.

Results

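The genes described here were each read by at least 1 probe set that was bright in control epidermis and not above background in mutant epidermis. A probe set is the group of short probes that reads a transcript, and the thresholds were a signal of at least 100 on both control arrays and one at or below the array's own 40th percentile on both mutant arrays. Of 18193 genes that the array read by a probe set naming 1 gene, 7788 had a probe set at 100 on both controls, and 47 met both thresholds. Families and single genes, among them keratins, Hox genes, solute carriers, stefins and serpins, were left out by symbol, which removed 12 genes and left 35. The genes were thus chosen by their mutant and control signals, so their differences are described and not tested.

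Epidermis was taken from E15.5 mouse embryos. The mutants carried KRT14-Cre and a Ctnnb1(Ex3)fl/+ allele, in which Cre under the keratin 14 promoter removes exon 3 of the gene for beta-catenin in basal keratinocytes and their descendants. The other group was control littermates, for which the labels give no genotype. There were 2 arrays of each, and per the series' design text the RNA came from 2 embryos of each kind. Dorsal skin was parted with dispase, and the epidermis alone was used.

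Beta-catenin carries the canonical Wnt signal. The deleted exon encodes the residues that mark it for destruction, so the protein made without that exon is stable and drives transcription with TCF and LEF factors. In embryonic skin this signal starts hair follicles, while keratinocytes outside follicles leave the basal layer, build the suprabasal layers and form the barrier with cornified proteins and lipids. Several of the 35 genes are known from those upper layers, and others are better known from immune or nerve cells.

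The 40th percentile, used as the background line, lay at a signal of 16.115 and 15.496 on the mutant arrays and at 14.4 and 14.6 on the control arrays. The thresholds were met by 61 of the 13811 probe sets at 100 on both controls, or 0.442%. Of the 61, 6 named no gene and 3 named several. Without control 1, 53 genes met the thresholds after the same omissions, the 35 among them. With the groups exchanged, 183 probe sets were high in mutants and at background in controls. The 35 genes' signals ran between 0.194 and 15.8 on the mutant arrays and between 101 and 1043 on the control arrays. A signal at background gives only an upper limit, so each difference is stated as at least a given fold lower in mutants, the geometric mean of the control signals over that of the mutant arrays' 40th percentiles. That bound lay between 6.64-fold and 50.5-fold with a median of 9.89-fold. It was at least 20-fold for 4 genes and at least 10-fold for 17. Each bound holds only for the probe set that stands for the gene, and other probe sets of a gene gave smaller or larger differences. For Cotl1 the bound was 10.9-fold and another probe set gave 2.56-fold, while for Cfap57 these were 16.5-fold and 43.5-fold. The bound follows the brightness of the probe set, so it does not order the genes by how far they changed.

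**Figure D1:**
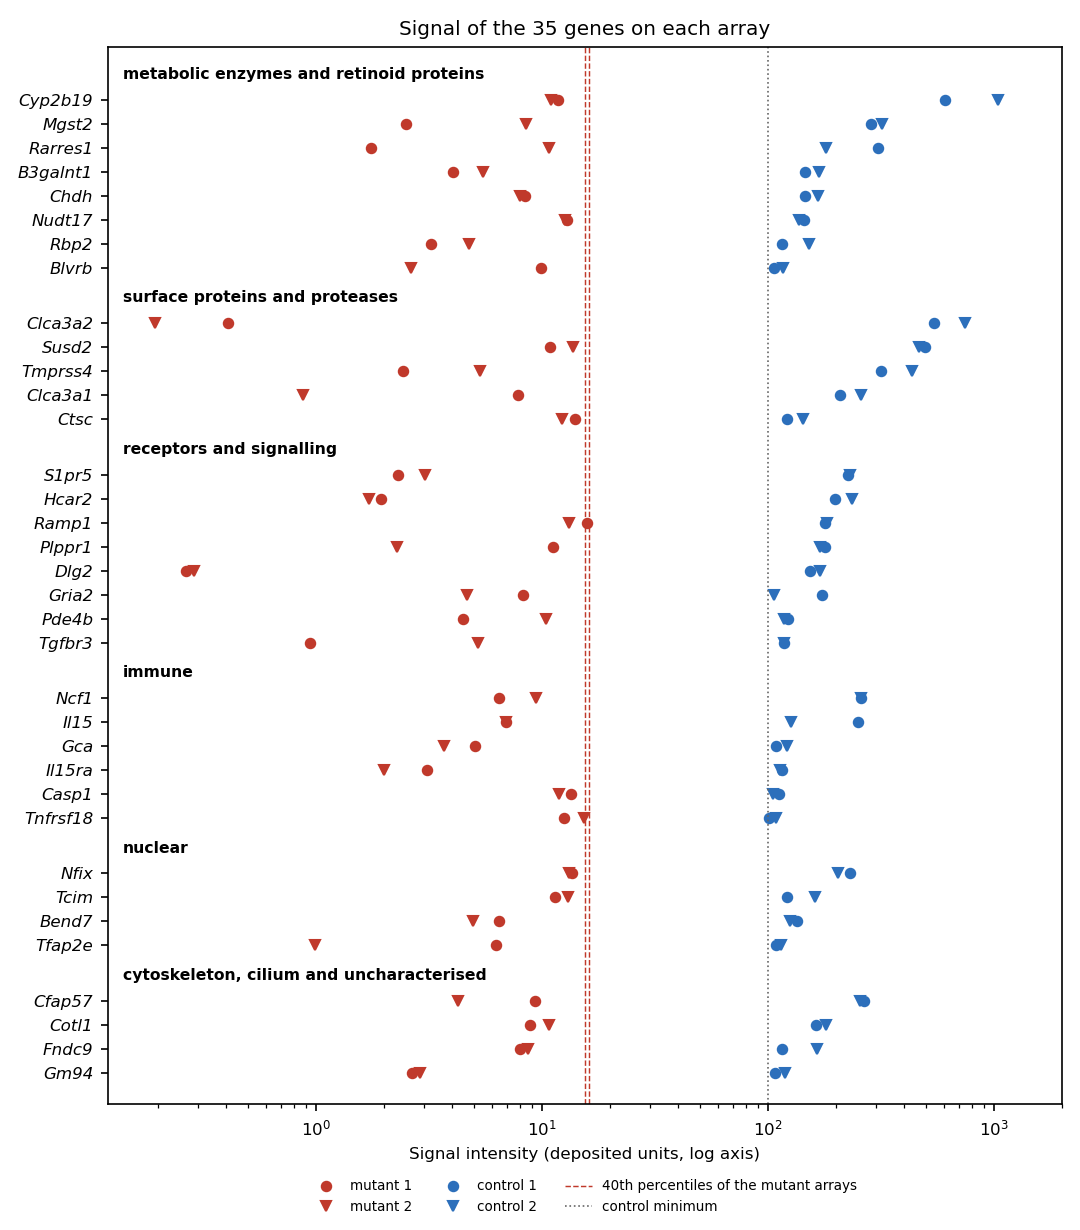
Signal of the probe set standing for each of the 35 genes, by role, on the mutant arrays (red) and the control arrays (blue), on a log axis. The dashed lines are the 40th percentiles of the mutant arrays, 16.115 and 15.496, and the dotted line is the control minimum of 100. No gene has a mutant signal above 15.8 or a control signal below 101.

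Among the metabolic enzymes, the widest bound belonged to Cyp2b19, a cytochrome P450 of mouse keratinocytes that makes epoxides of arachidonic acid. Cyp2b19 had signals of 11.8 and 10.9 in mutants, against 610 and 1043 in controls, and was at least 50.5-fold lower in mutants. The control embryos differed 1.71-fold from each other. Mgst2, a membrane glutathione transferase that can also make leukotriene C4, had 2.51 and 8.52 in mutants, against 285 and 321 in controls. Its bound was 19.1-fold.

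Rbp2 and Rarres1 are tied to vitamin A, Rbp2 as a cellular retinol-binding protein best known from the intestine and Rarres1 as a membrane protein named for its induction by a retinoid in human skin. Rarres1 read 1.76 and 10.7 in mutants, against 307 and 181 in controls, so the control embryos were 1.69-fold apart. Rbp2 read 3.23 and 4.75 in mutants, against 116 and 152 in controls. The bounds were 14.9-fold for Rarres1 and 8.38-fold for Rbp2.

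The remaining metabolic genes were B3galnt1, which makes the glycolipid globoside, Chdh, the mitochondrial enzyme that oxidises choline, Nudt17, a member of the Nudix hydrolases, and Blvrb, a flavin and biliverdin reductase. B3galnt1 had 4.03 and 5.51 in mutants, against 146 and 168 in controls. Chdh had 8.45 and 7.96 in mutants, against 147 and 166 in controls. These mutant signals all lay well under the percentile. Nudt17 sat closer to it, at 13.0 and 12.7 in mutants, against 144 and 137 in controls. Blvrb read 9.89 and 2.65 in mutants, against 106 and 117 in controls. Bounds for the 4 enzymes lay between 7.07-fold for Blvrb and 9.89-fold for B3galnt1.

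Surface proteins and proteases formed a group of 5. Clca3a1 and Clca3a2 belong to a family of secreted proteins that regulate calcium-activated chloride channels, and they are the only pair among the 35 that are next to each other on a chromosome in the RefSeq annotation of GRCm38.p6. Clca3a2 gave 0.409 and 0.194 in mutants, against 541 and 746 in controls, and was at least 40.2-fold lower. Clca3a1 gave 7.80 and 0.875 in mutants, against 209 and 259 in controls, with a bound of 14.7-fold. The probe set of Clca3a1 is of a type whose probes can also match related transcripts, and a further probe set that names both genes read 5.48 and 0.141 in mutants, against 631 and 885 in controls. A second probe set of each gene was dimmer and showed the same split. It read 1.85 and 2.36 in mutants, against 54.3 and 75.8 in controls, for Clca3a2. For Clca3a1 it read 0.416 and 2.09 in mutants, against 46.5 and 35.96 in controls.

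Susd2, a sushi-domain membrane protein, had 10.8 and 13.8 in mutants, against 495 and 468 in controls, and a bound of 30.5-fold. Tmprss4, a serine protease anchored in the cell membrane, had 2.42 and 5.34 in mutants, against 318 and 432 in controls, and a bound of 23.4-fold. Both mutants were at background and both controls were far above it for each gene, as the thresholds required. Ctsc, or cathepsin C, which activates granule proteases and whose loss in humans causes thickened palms and soles, went against the name silenced. The probe set that met the thresholds read 13.9 and 12.3 in mutants, against 122 and 143 in controls. Another probe set of Ctsc read 293 and 239 in mutants, against 2056 and 2134 in controls, so the transcript was lower in both mutants and still measured there.

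Receptors and signalling proteins made up 8 genes. S1pr5, a receptor for the lipid sphingosine-1-phosphate, had 2.30 and 3.04 in mutants, against 226 and 231 in controls, and a bound of 14.5-fold. Hcar2, the receptor for niacin and for the ketone body beta-hydroxybutyrate, had 1.94 and 1.72 in mutants, against 198 and 235 in controls, and a bound of 13.6-fold. Ramp1, the partner protein that makes the calcitonin-like receptor respond to CGRP, had 15.8 and 13.2 in mutants, against 178 and 182 in controls. Ramp1 was the second closest to the percentile of all 35, at 0.978 of it on the nearer mutant array. Its other 2 probe sets were at background on all 4 arrays.

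Tgfbr3 encodes betaglycan, which presents TGF-beta ligands to their signalling receptors. Its chosen probe set read 0.938 and 5.21 in mutants, against 117 and 118 in controls. A second probe set gave 23.0 and 25.5 in mutants, against 466 and 458 in controls, so the mutants stood above background there and far below both controls. Pde4b, a phosphodiesterase that breaks down cyclic AMP, read 4.48 and 10.5 in mutants, against 123 and 117 in controls. A further 3 of its probe sets were at background on every array, and 2 more were above background in controls only.

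Of these, 3 signalling genes are better known from neurons. Dlg2 is a scaffold of synapses, Gria2 is a subunit of AMPA-type glutamate receptors, and Plppr1 is a membrane protein related to lipid phosphatases. Dlg2 had 0.267 and 0.288 in mutants, against 153 and 170 in controls. Plppr1 had 11.2 and 2.28 in mutants, against 179 and 170 in controls. The bounds of the 2 genes were 10.2-fold and 11.0-fold, and their other probe sets, 2 for Dlg2 and 3 for Plppr1, were also above background in controls only. Gria2 had 8.23 and 4.65 in mutants, against 174 and 106 in controls. One other probe set of Gria2 was above background in mutants, at 18.6 and 26.9, against 44.2 and 41.6 in controls. Markers of Schwann cells and neurons did not all go one way. Of 8 on the array, 3 were at background on all 4 arrays, and of 5 tested 3 rose, 1 fell and 1 did not pass. Tubb3, a tubulin of neurons, read 765 and 819 in mutants, against 25.7 and 17.3 in controls, and rose. The summed signal of the 8 was 1991 and 1996 in mutants, against 1345 and 1311 in controls. That higher sum came from Tubb3 alone. Erbb3, the 1 that fell, read 972 and 839 in mutants, against 1208 and 1162 in controls. Stmn2, another that rose, was at background on both controls and passed the filter through the mutants alone. The part of these cells in the 3 genes' values was not tested.

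Another 6 genes belong to immune pathways. Il15 encodes a cytokine that supports natural killer cells and some T cells, and Il15ra the receptor chain that presents it to neighbouring cells. Il15 had 6.91 and 6.92 in mutants, against 250 and 127 in controls, and the 1.97-fold gap between the controls was the widest among the 35 genes. Il15ra had 3.10 and 2.01 in mutants, against 115 and 114 in controls. The bounds were 11.3-fold for Il15 and 7.24-fold for Il15ra.

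Ncf1 encodes a cytosolic subunit of the phagocyte NADPH oxidase, Casp1 the protease that matures interleukin-1 beta and interleukin-18, Tnfrsf18 the receptor GITR, and Gca a calcium-binding protein of granulocytes. Ncf1 read 6.46 and 9.46 in mutants, against 258 and 258 in controls, with a bound of 16.3-fold. Casp1 read 13.5 and 11.9 in mutants, against 112 and 105 in controls, and Tnfrsf18 read 12.5 and 15.4 in mutants, against 101 and 109 in controls. These were the lowest bounds of all, 6.86-fold for Casp1 and 6.64-fold for Tnfrsf18. Gca read 5.06 and 3.68 in mutants, against 109 and 121 in controls. A brighter probe set of Ncf1 read 9.11 and 27.9 in mutants, against 447 and 442 in controls, and so was above background on 1 mutant array.

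Several defining markers of immune cells were at background in both groups, and others were not. Ptprc, which encodes the leukocyte protein CD45, read 6.61 and 3.36 in mutants, against 5.54 and 1.62 in controls. Cd207, the marker of Langerhans cells, read 1.52 and 0.937 in mutants, against 2.91 and 2.30 in controls, and Cd3e, Cd3d and Cd3g were likewise at or below the percentile on all 4 arrays. Of 15 markers of Langerhans cells and macrophages, 6 were at background on all 4 arrays and 7 were bright enough to test. With limma 0 of the 7 passed, also at an unadjusted p under 0.05, which does not show that they were unchanged. Among those above background on all 4 arrays, H2-Ab1, of antigen-presenting cells, read 62.5 and 92.4 in mutants, against 43.2 and 66.2 in controls, and Csf1r, of macrophages, read 17.6 and 32.3 in mutants, against 41.6 and 41.2 in controls. The summed signal of the 15 was 185 and 279 in mutants, against 237 and 254 in controls. Of 8 T cell markers, 5 were at background on all 4 arrays, and the summed signal was 123 and 75.3 in mutants, against 164 and 132 in controls. Thy1, which dermal fibroblasts also express, was the 1 T cell marker that fell, at 43.0 and 23.4 in mutants, against 123 and 93.3 in controls. The lower T cell sum in mutants came from Thy1 alone. The part of these markers in the 6 genes' values was not tested.

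Nuclear proteins made up 4 of the 35. Nfix is a transcription factor of the nuclear factor I family, Tfap2e belongs to the AP-2 family, Bend7 carries a BEN domain, and Tcim is a small regulator that was reported in human cells to promote beta-catenin signalling. Nfix read 13.6 and 13.2 in mutants, against 230 and 204 in controls. Tfap2e read 6.27 and 0.995 in mutants, against 109 and 114 in controls. Both mutants were below both controls for each factor, as the thresholds required. Bend7 read 6.43 and 4.95 in mutants, against 135 and 126 in controls. Tcim read 11.4 and 13.1 in mutants, against 121 and 161 in controls.

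A second probe set of Tcim was above background in both groups, at 28.5 and 31.9 in mutants, against 270 and 398 in controls. Nfix had 4 other probe sets. One, of the type whose probes can also match related transcripts, was just above background in mutants. It read 19.9 and 16.2 there, against 166 and 121 in controls. Of the rest, 2 were above background in controls only, and 1 was at background on every array.

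The last 4 genes were Cotl1, which binds actin filaments, Cfap57, a protein of cilia and flagella, Fndc9, which has a fibronectin type III domain, and Gm94, a predicted gene for which no role is given here. Cfap57 had 9.32 and 4.23 in mutants, against 266 and 254 in controls. Its second probe set had 18.5 and 25.5 in mutants, against 761 and 1173 in controls. Both probe sets separated the groups, and only the second stood above background in mutants. Fndc9 had 8.02 and 8.72 in mutants, against 115 and 164 in controls, and Gm94 had 2.66 and 2.88 in mutants, against 107 and 119 in controls.

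Cotl1 differed most from the rest of the group in how its probe sets behaved. The probe set that met the thresholds had 8.85 and 10.7 in mutants, against 163 and 181 in controls. All 5 of its other probe sets were above background on both mutant arrays. One of them had 151 and 194 in mutants, against 975 and 980 in controls, and another had 145 and 146 in mutants, against 393 and 353 in controls. Cotl1 was therefore lower in mutants at each probe set. These 5 are of the type whose probes can also match related transcripts. How much of their mutant signal was from Cotl1 is thus not known.

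Across the 35 genes, 19 had 1 probe set and 16 had several, which gave 34 further probe sets naming 1 gene. Of these, 6 were at background on both controls and so carried no information about the difference. The other 28 probe sets were all lower on both mutants than on both controls, as were 43.7% of all 21822 probe sets naming 1 gene and above background on both controls. The genes were chosen for being low in mutants, so nothing is read from that count. Of the 28, 16 were at background on both mutants, 1 was above it on 1 mutant and 11 were above it on both. The name silenced was thus not borne out for Cotl1, Ctsc, Tgfbr3, Cfap57, Tcim, Nfix and Gria2, which kept a probe set above background on both mutants, nor plainly for Ncf1. For the other 27 genes no probe set was above the percentile on either mutant array. These probe sets read the same RNA as the chosen ones and are no independent evidence.

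**Figure D2:**
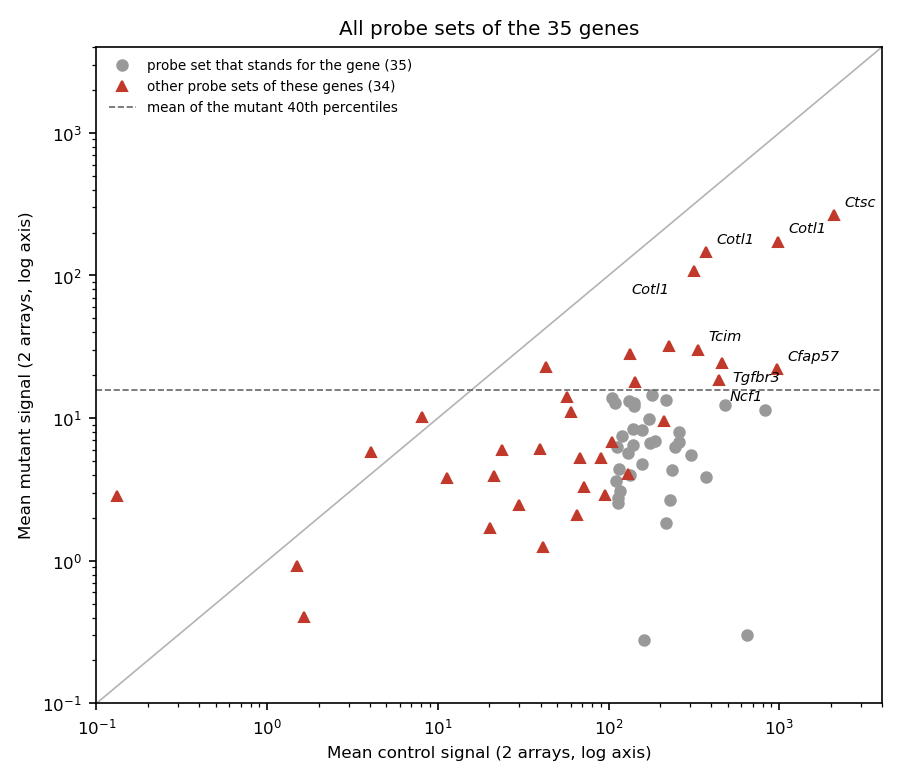
Mean mutant signal against mean control signal, both on log axes, for the 35 chosen probe sets (grey circles) and the 34 other probe sets naming 1 of the genes (red triangles). The diagonal marks equal signals and the dashed line the mean of the mutant 40th percentiles; 11 of the triangles are above the percentile on both mutant arrays, among them those labelled Cotl1, Ctsc, Tcim, Tgfbr3 and Cfap57.

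The authors' deposited table offers the same arrays after a different background correction. Per its header, it rests on GCRMA values and lists those probe sets that were Present in 2 or more of the 4 samples and whose group means were at least 2-fold apart. Of the 35 chosen probe sets, 34 were in the authors' deposited table, all lower in mutants, and Il15ra's was not listed there. The fold, control over mutant, lay between 6.34 and 99.94 with a median of 36.9 in the authors' deposited table, where the median of all 3124 probe sets lower in mutants was 3.03. It exceeded the bound given here for 33 of the 34, the exception being Cotl1. Of the 45037 probe sets on the array, 6296 are listed there. The arrays are the same and the 35 were chosen for being low in mutants. Nothing is therefore read from their being listed, their direction or their larger folds.

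Ratios to the control mean in the authors' deposited table stop at 0.01, and Cyp2b19, Clca3a2 and Susd2 stood at that limit on both mutant arrays. At the other end, Cotl1 had ratios of 0.158 and 0.158 in mutants, against 0.989 and 1.01 in controls, in the authors' deposited table. Blvrb, with a fold of 9.69 in the authors' deposited table, was the only other gene under 10-fold. For Tgfbr3 and Cfap57, whose brighter probe sets were above background on the mutant arrays in the signals used here, the same probe sets stood at the 0.01 limit on both mutants, with folds of 99.98 and 99.42, in the authors' deposited table. Folds at that limit are capped and are no measure of how low the mutants were. For Ctsc, the bright probe set had a fold of 16.1 and ratios of 0.0654 and 0.0591 in mutants, against 0.950 and 1.05 in controls, in the authors' deposited table.

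**Figure D3:**
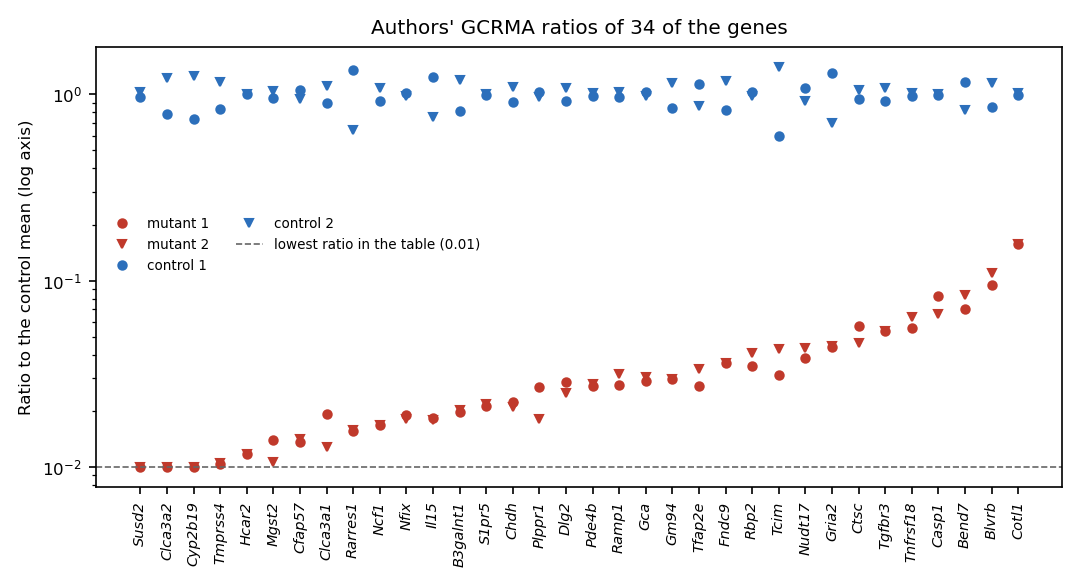
Ratio to the control mean in the authors' deposited table for 34 of the genes, on a log axis, on the mutant arrays (red) and the control arrays (blue), ordered by the authors' fold. The dashed line is the lowest ratio in the table, 0.01, which Susd2, Clca3a2 and Cyp2b19 reach on both mutant arrays; Cotl1, at 0.158, lies farthest from it.

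The control embryos differed from each other for some of these genes. The gap was over 1.5-fold for 4 of the 35, Il15, Cyp2b19, Rarres1 and Gria2, or 11.4%, while 1.45% of all probe sets at 100 on both controls differed as much. The median gap was similar, 1.11-fold for the 35 and 1.09-fold for all. Control 2 had the higher signal for 22 genes, Cyp2b19 among them, and control 1 for 13, among them Il15, Rarres1 and Gria2. The control mean was under 200 for 23 of the genes, and its median was 157, against 328 for all probe sets at 100 on both controls.

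Some genes lay close to a threshold. Just inside the control minimum were Tnfrsf18, Casp1 and Blvrb, with lower control signals of 101, 105 and 106. Just outside it were Sirpa at 97.5, Cpd at 97.2 and Gcnt2 at 96.3, each at background on both mutants. Nearest inside the percentile were Tnfrsf18, Ramp1 and Susd2. Just outside it, 2610528A11Rik had 16.1 and 11.7 in mutants, against 780 and 995 in controls. Gprin2 had 11.0 and 15.8 in mutants, against 506 and 639 in controls, and Orm1 had 11.4 and 16.1 in mutants, against 494 and 826 in controls.

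Sequences upstream of the genes are shown for Cyp2b19, which had the widest bound, for Clca3a1, a surface protein gene, and for Casp1, which was picked after the search because it holds letters of the TCF/LEF motif. Each line gives the 250 bases before a start site from RefSeq's GRCm38.p6 table, in the direction of transcription, with matches to the motifs listed after them in capitals.
Cyp2b19: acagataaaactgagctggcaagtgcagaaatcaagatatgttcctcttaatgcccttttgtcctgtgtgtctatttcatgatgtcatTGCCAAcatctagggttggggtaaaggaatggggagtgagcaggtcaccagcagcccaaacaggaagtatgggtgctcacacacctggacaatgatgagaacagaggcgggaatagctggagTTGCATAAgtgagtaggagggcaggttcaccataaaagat
Clca3a1: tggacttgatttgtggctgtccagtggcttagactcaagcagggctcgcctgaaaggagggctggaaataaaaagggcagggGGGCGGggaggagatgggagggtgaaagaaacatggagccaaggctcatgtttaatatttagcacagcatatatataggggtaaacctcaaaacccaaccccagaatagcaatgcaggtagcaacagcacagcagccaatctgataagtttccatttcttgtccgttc
Casp1: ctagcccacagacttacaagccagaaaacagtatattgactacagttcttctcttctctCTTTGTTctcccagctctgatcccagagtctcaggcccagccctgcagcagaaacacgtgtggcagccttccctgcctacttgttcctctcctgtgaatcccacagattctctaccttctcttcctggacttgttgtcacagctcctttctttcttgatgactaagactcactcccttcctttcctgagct

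They lie at chr7:26756892-26757141 on the plus strand, chr3:144760978-144761227 on the minus strand, and chr9:5298267-5298516 on the plus strand. The motifs, searched on both strands, were TATAAA for the TATA box, CTTTG followed by a pair of letters that are each A or T for TCF/LEF, TGANTCA for AP-1, GCCNNNGGC for AP-2, AACNNGTT for Grainyhead, TTGCNNAA for C/EBP, TTGGCA for nuclear factor I and GGGCGG for the GC box. Cyp2b19 held C/EBP letters with the first base 40 before the start and nuclear factor I letters at 162. Clca3a1 held a GC box at 168, and Casp1 held TCF/LEF letters at 191. No matches overlapped in these 3 sequences.

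Promoters were in the table for 26 of the 35 genes, 38 sequences in all, beside 32851 promoters of all genes. The TCF/LEF letters, those of the factors that beta-catenin binds, were in 7 of the 38, or 18.4%, and in 14.8% of all promoters. The genes were Blvrb, Casp1, Chdh, Il15ra, Nfix and Pde4b. AP-1 letters were in 10.5% of the 38 and 6.75% of all, and AP-2 letters in 13.2% and 13.7%. C/EBP letters were in 7.89% of the 38 and 9.56% of all, nuclear factor I letters in 7.89% and 12.3%, Grainyhead letters in 2.63% and 3.64%, the TATA box in 7.89% and 12.4%, and the GC box in 31.6% and 32.7%. The median GC content was 52.6% in the 38 and 52.4% in all. A match is a description of letters and not a bound site.

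Chromosome neighbours of the 35 genes were looked at next, since they played no part in choosing them. The nearest protein-coding gene on each side gave 68 genes, of which 63 were on the array and 48 were bright enough to test. With limma, an adjusted p under 0.05 over all probe sets tested was the threshold, and 24.5% of 12469 genes tested fell and 20.6% rose in mutants. Among the neighbours 15 fell, or 31.2%, 8 rose, or 16.7%, and 25 did not pass. Without either mutant array 5 rose. Their median log2 difference, mutant minus control, was -0.23, against -0.06 for all genes tested. So the shares among the neighbours were close to those of all genes.

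A few neighbours, named after their values were seen, show the range. Ifih1, a sensor of viral RNA next to Gca, had a log2 difference of -2.78 ± 0.30 (SE, n = 2 each; limma adjusted p = 0.000257). Rab38, a membrane-traffic protein next to Ctsc, had 653 and 715 in mutants, against 1998 and 2278 in controls. Tmem125, next to Cfap57, had 56.1 and 84.5 in mutants, against 264 and 286 in controls. Both fell. In the other direction, Gask1b, next to Gria2, had 496 and 673 in mutants, against 134 and 142 in controls, and rose by 2.06 ± 0.16 on the log2 scale (SE; limma adjusted p = 4.79e-05). Cyfip2, next to Fndc9, had 258 and 225 in mutants, against 75.8 and 96.1 in controls, and also rose (limma adjusted p = 0.000339), as did another of its probe sets, by 1.62 ± 0.16 on the log2 scale (SE; limma adjusted p = 0.000196), while its remaining probe set did not pass.

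The pathways around the 35 genes were read in 6 lists and in Skint10, the 1 gene of the Skint family that was tested. The first was enzymes of epidermal lipids, where 22 of the 33 genes tested besides Cyp2b19 fell, or 66.7%, 6 rose, or 18.2%, and 5 did not pass, with a median log2 difference of -1.37. Of all genes, 24.5% fell and 20.6% rose. Elovl4, which makes the very long fatty acids of barrier ceramides, averaged 446 ± 23.8 in mutants and 3276 ± 161 in controls (SD, n = 2 each). Its log2 difference was -2.88 ± 0.09 (SE; limma adjusted p = 7.38e-07). Acer1, a ceramidase of the upper epidermis, Degs1, which makes ceramide from dihydroceramide, and Alox12b, the lipoxygenase of barrier lipids, had log2 differences of -3.48, -2.75 and -4.92 and fell too. Unlike Cyp2b19, none of the 22 genes that fell was at background on both mutant arrays. Against the trend, Alox8, a lipoxygenase, averaged 102 ± 45.1 in mutants and 4.49 ± 2.89 in controls, and Elovl3, a fatty acid elongase of sebaceous glands and hair follicles, averaged 106 ± 21.9 in mutants and 8.48 ± 1.59 in controls (SD, n = 2 each). Both rose. These were the 2 rises of genes at background on both controls, which passed the filter through the mutants alone.

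Among 10 other cytochrome P450 genes tested, 5 fell, or 50%, 1 rose, or 10%, and 4 did not pass, beside 24.5% and 20.6% of all genes. Of these calls, 2 falls were of genes at background on both mutants and the rise was of one at background on both controls, which passed the filter through 1 group alone. Cyp4f39, which hydroxylates the long fatty acids of barrier lipids, averaged 318 ± 5.55 in mutants and 825 ± 118 in controls (SD, n = 2 each) and fell by 1.37 on the log2 scale. Cyp2s1, a P450 of epithelia, and Cyp39a1, an oxysterol hydroxylase, had log2 differences of -1.89 and -1.44 and also fell. Cyp2j6, from a family that like Cyp2b19 can epoxidise arachidonic acid, was at background on both mutant arrays and was at least 3.10-fold lower, although a second probe set did not pass. Without control 1 or control 2 the falls numbered 3, since Cyp2j6 and 1 other gene then had too few arrays above background to be tested. Without mutant 1, 0 rose.

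Genes of prostaglandins and leukotrienes, the other routes from arachidonic acid, were called about as often as genes in general. Of 13 tested, 4 fell, or 30.8%, 3 rose, or 23.1%, and 6 did not pass, beside 24.5% and 20.6% of all genes. Hpgd, which inactivates prostaglandins, averaged 1164 ± 75.0 in mutants and 22.4 ± 2.35 in controls (SD, n = 2 each), a log2 rise of 5.70 ± 0.14 (SE; limma adjusted p = 3.24e-07). Ptgr1, a reductase of prostaglandins and leukotriene B4, had a log2 difference of -3.20, Ptger3, a receptor of prostaglandin E2, one of -3.30, and Pla2g4a, the phospholipase that frees arachidonic acid, one of -2.04. All 3 fell.

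In the interleukin-1 and interleukin-36 family, whose cytokines Casp1 in part matures, 5 of 11 genes tested fell, 0 rose with limma, also at an unadjusted p under 0.05, and 6 did not pass. The falls were 45.5% of those tested, beside 24.5% of all genes. Of the falls, 2 were of genes at background on both mutants, which passed the filter through the controls alone. Il1f5, the interleukin-36 receptor antagonist, averaged 78.3 ± 0.927 in mutants and 698 ± 157 in controls (SD, n = 2 each). Il1rn, the interleukin-1 receptor antagonist, and Il1rl2, the interleukin-36 receptor, fell too, with log2 differences of -2.44 and -1.38. Il1f9, or interleukin-36 gamma, was at background in mutants and at least 5.68-fold lower. Since Il1f9 was 1 of the 2 genes that passed through the controls alone, no trend of the family is read from the 4 genes named. Without control 1 the falls numbered 3, since Il1f9 and 1 other gene could not be tested.

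Chemokines and their receptors were mostly dim, with 20 of 40 at background on all 4 arrays. Of 18 tested, 5 fell, or 27.8%, 3 rose, or 16.7%, and 10 did not pass, shares near the 24.5% and 20.6% of all genes. Of the calls, 3 falls were of genes at background on both mutants and 2 rises of genes at background on both controls, which passed the filter through 1 group alone. Ackr3, a scavenging chemokine receptor, averaged 99.5 ± 19.0 in mutants and 509 ± 11.9 in controls, and Cx3cl1, or fractalkine, averaged 31.9 ± 1.54 in mutants and 166 ± 8.27 in controls (SD, n = 2 each). Both fell. Cxcl14, a chemokine of keratinocytes, averaged 2717 ± 289 in mutants and 1580 ± 103 in controls (SD, n = 2 each) and rose by 0.78 on the log2 scale. Ccr7, a receptor of migrating leukocytes, was at background in controls and at least 2.54-fold higher in mutants. Skint10, from a family of epidermal and thymic proteins, was at background in mutants, at 0.463 and 0.225, against 53.0 and 114 in controls, and was at least 4.92-fold lower. Without either control Skint10 was not tested and 2 chemokine genes fell, and without either mutant 1 rose.

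**Figure D4:**
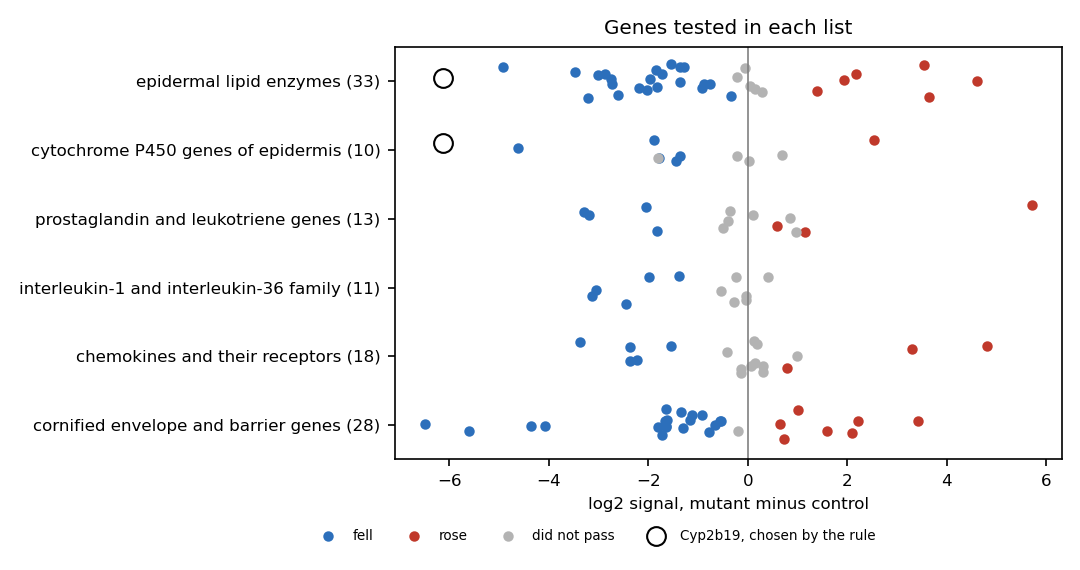
Log2 difference in signal, mutant minus control, of each gene tested in 6 lists, with 1 point per gene and the number tested besides Cyp2b19 in brackets; points are spread vertically for legibility. Blue points fell, red points rose and grey points did not pass (limma, adjusted p under 0.05), and the open circles mark Cyp2b19, which the rule chose and whose call is not shown, at its measured difference.

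Markers of several cell types differed between the groups. Of 7 tested for basal keratinocytes 3 fell and 2 rose, and of 9 for periderm 3 fell and 4 rose. Those of suprabasal keratinocytes were lower in mutants, the direction for which the 35 genes were chosen, so nothing is read from the shared direction. All 8 fell, their summed signal was 7573 and 7958 in mutants, against 51798 and 52754 in controls, and 0 of them was at background on both mutant arrays. Krt77, a suprabasal keratin, averaged 65.9 ± 0.0484 in mutants and 6985 ± 5.73 in controls (SD, n = 2 each). In the list of cornified envelope and barrier genes, 20 of 28 tested fell, 7 rose and 1 did not pass, with a median log2 difference of -1.14. Those shares are 71.4% and 25%, beside 24.5% and 20.6% of all genes, and 1 rise was of a gene at background on both controls. Casp14, a protease of cornification, and Hrnr, or hornerin, fell, with log2 differences of -5.61 and -6.48, though a second probe set of Casp14 did not pass. Lor, or loricrin, the main protein of the envelope, had a log2 difference of -4.08, and Dmkn, or dermokine, one of -1.66, while Calml3, a calmodulin-like protein, and Klk7, a protease of shedding, rose by 1.00 and 2.21. Of dermal fibroblast markers, 4 of 9 tested fell and 1 rose, and the summed signal of the 11 on the array was 3725 and 4182 in mutants, against 7157 and 8618 in controls. Postn, or periostin, a matrix protein, fell most among them, at 11.3 and 29.6 in mutants, against 3590 and 4302 in controls. The gap in that sum came nearly all from Postn, so the sum describes this gene and not the list. Some dermal markers were uneven between control 1 and control 2, such as Col1a1 at 1.84 and 107 and Col3a1 at 22.9 and 381. Others were not, such as Col5a1 at 340 and 351, and the cause was not tested. Dcn, or decorin, was the 1 that rose, at 3444 and 3704 in mutants, against 2908 and 2900 in controls. That call was lost with 6 alternatives, median centring among them (limma adjusted p = 0.223), and a second probe set of Dcn did not pass. Markers of other cells rose. All 8 of the hair follicle did, with a summed signal of 32711 and 36377 in mutants, against 518 and 591 in controls, and all 9 of melanocytes did, with 5371 and 6550 in mutants, against 1782 and 1797 in controls. Of these, 4 hair follicle markers and 1 melanocyte marker were at background on both controls and passed the filter through the mutants alone. In whole epidermis, fewer cells of a type and less RNA per cell cannot be told apart. The part of these shifts in the 35 genes' values was not tested.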

How the data were processed

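Gene expression was measured on 4 one-colour Affymetrix MOE430 2.0 arrays, 2 of mutant and 2 of control epidermis, grouped by the sample titles. The deposited intensity of each probe set was linear, made with GCOS and MAS5 per the submitters' processing notes, and already scaled alike on each array (trimmed mean about 149), so it was not normalized again. The authors' deposited table holds ratios from GCRMA values, relative to the control mean, per the file headers.

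Of 45037 probe sets, 34945 named 1 gene in the platform annotation, and 34741 were updated through Entrez identifiers with the GRCm38.p6 gene table. The 35 genes were chosen by the thresholds stated, on the brightest probe set that met them, by mean control signal. The members and all lists were chosen with earlier results of these data known. Other genes were tested with limma 3.58.1 in R 4.3.3 on log2 intensity, with an intensity trend and Benjamini-Hochberg adjustment over 28434 probe sets above their array's 40th percentile on at least 2 arrays. Each gene was read by its probe set of highest mean log2 signal. Named from the lists were up to 4 genes each with the largest moderated t, and Alox8, Elovl3, Klk7, Calml3, Krt77, Thy1, Tubb3, Postn and Dcn, like the neighbours, after their values were seen. The code was tested on simulated data, where limma called 42 of 100 falls of 1 and 73 of 100 falls of 2 on the log2 scale. A gene that did not pass may therefore still have changed. With 2 arrays a group their number limits the precision, and an exact test cannot go below p = 0.333. Promoter coordinates are those of the RefSeq table; a genome build for the arrays is not given in the sources used here. Alternatives were other percentiles, control minima, scalings, filters, each array left out and a replicate block.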

Additional observations from a re-analysis of the deposited data

How the results depend on the processing

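The number of genes that met the thresholds depended on where these were set. It was 20 with the 30th percentile, 95 with the 50th, 93 with a control minimum of 50 and 10 with a minimum of 200, and the median log2 difference was -5.45, -3.64, -4.13 and -6.08 in that order, against 35 genes and -5.05 with the thresholds used. These medians take the mutant signals at background as measured and are no bounds. With such signals set to the percentile the median was -3.31. Leaving out 1 array gave between 39 and 53 genes, all 35 among them each time, with 53 when control 1 was left out, and a median between -4.95 and -4.31. Median centring gave 38 genes and quantile normalization 35. Asking that the gene's brightest probe set meet the thresholds left 26, and asking it of each probe set at 100 on both controls left 28.

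In the lists, without Cyp2b19, 81 genes passed the threshold, and between 70 and 76 did with 1 array left out. Genes at background in mutants cannot be tested once a control is left out. Without control 1 or without control 2, the 2 calls lost among P450 genes and the 3 among chemokines, and that of Skint10, were of genes not tested there. Over the arrays left out, the count that fell ran between 3 and 6 for P450 genes, 2 and 5 for chemokines, 3 and 5 for the interleukin-1 family and 0 and 1 for the Skint family. The count that rose ran between 0 and 1 for P450 genes, 1 and 4 for chemokines and 5 and 7 for the neighbours, lowest without a mutant array in each case. Without the intensity trend, 4 cornified envelope genes and 4 neighbours rose; the cause was not tested. Median centring moved the median log2 difference of all genes by -0.11, and 63.2% of its calls fell, against 54.4%.

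The titles number the samples 1 and 2 in both groups, but no label says that the numbers pair them or gives a litter. The array differences of the 2 groups were hardly correlated across 28434 probe sets (r = 0.01). That value cannot tell whether embryos of the same number shared a litter. With the number as a replicate block, 81 list genes passed. Erbb3 and Stmn2 are left aside in what follows. No alternative reversed another named difference. None took one across the threshold where the gene was tested, except for Dcn, whose adjusted p (limma) ran between 0.0208 and 0.223 and was above 0.05 with 6 alternatives.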
